A study of Mus musculus with 9 samples.

Results

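Collagens are triple-helical proteins that make up most of the fibres, networks and filaments of the extracellular matrix, and fibroblasts are their main source in connective tissue. Each chain is modified inside the cell by prolyl and lysyl hydroxylases, which stabilise the helix and prepare it for cross-linking, and outside the cell by lysyl oxidases, which join neighbouring molecules. Presented here are 57 genes, made up of 44 collagen chains (every gene on the array whose symbol has the form Col, number, a, number) and 13 modifying enzymes (P3h1 to P3h3, P4ha1 to P4ha3, Plod1 to Plod3, Lox, Loxl1, Loxl3 and Loxl4), out of 19698 genes tested. For 3 of them (Col6a5, Col6a6 and Loxl4) the array held a second row, and the row with the higher mean was used.

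The samples were 3T3 fibroblasts, an immortalised mouse embryonic line, in 3 groups of 3 arrays. BAFkd_st cells carried a stable retroviral hairpin RNA against a sequence shared by Brg1 and Brm, the ATPases of the BAF chromatin remodelling complex, and were given TNF-α at 5 ng/ml for 1 h. The vector has a U6 promoter and co-expresses GFP, for which the cells were sorted, and the design rests on a single hairpin. The control_st cells had no knockdown and the same TNF-α treatment, and the control_ns cells had neither. The sources used here do not name a vector for the control cells, and unstimulated knockdown cells were not analysed here. Values are RMA log2 signals, so a difference of 1 is a doubling of the signal, and signals of different genes are not compared with each other. A gene was called at a limma adjusted p under 0.05 over all 19698 genes. A second fit added the replicate number of the arrays as a block, and its adjusted p is called the blocked one. The p-values rest on 3 arrays per group, which the methods describe as independent biological replicates done on different days. The sources used here do not say whether arrays of one number share a day.

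The knockdown targets and cell identity were examined first. Smarca4, which encodes Brg1, was at 10.50, 10.64 and 10.25 in BAFkd_st, against 11.62, 11.53 and 11.56 in control_st, and fell 2.15-fold (adjusted p = 0.00362). Its blocked call (0.00124) was lost without the arrays numbered 1 (0.148) and kept without those numbered 2 (0.00354) or 3 (0.0225). Fits without 1 number have fewer arrays and fewer residual degrees of freedom, so a call lost there is not evidence of no difference. Smarca2, which encodes Brm, differed by -0.36 ± 0.20 and was not called (adjusted p = 0.734, blocked 0.129). By quantitative RT-PCR the paper reports that the hairpin lowered both transcripts. Of 7 fibroblast and mesenchyme markers, 0 were called by limma without the block (1 lower at an unadjusted p under 0.05) and 2 were called lower with it, namely S100a4 (-1.18, blocked adjusted p = 0.0245) and Pdgfra, a PDGF receptor (-0.57, blocked adjusted p = 0.00804). Of all genes, 4.75% were lower at that unadjusted p, and 2.33% were called lower with the block. The blocked call of S100a4 was lost without the arrays numbered 1 (0.439) or 3 (0.236), and that of Pdgfra without those of any one number (0.125, 0.0519 and 0.108). Vim, the filament protein of mesenchymal cells, lay between 13.95 and 14.01 on all 9 arrays. Fn1 lay between 13.37 and 13.75, Pdgfrb between 12.28 and 12.70, S100a4 between 11.08 and 12.95, and Pdgfra between 10.07 and 11.50. Thy1 (7.36 to 7.65) and Fap (4.76 to 5.03) lay below the array medians of 7.77 to 7.83 on all 9 arrays. Of 4 adipocyte markers, 0 were called without the block and 1 with it, Fabp4, which was lower (-0.81, blocked adjusted p = 0.00169, lost without the arrays numbered 1 at 0.150). The other adipocyte markers, Adipoq (0.15), Pparg (0.09) and Plin1 (-0.00), were called in neither fit. Against control_ns the same 3 genes, S100a4 (-1.21, blocked adjusted p = 0.0150), Pdgfra (-0.61, 0.00369) and Fabp4 (-0.75, 0.00156), were called lower with the block alone, where 3.36% of all genes were called lower. Of the markers of the remaining lineages, 0 of 6 leukocyte, 5 epithelial, 4 endothelial, 6 cartilage and bone and 4 smooth muscle markers were called in either fit (1 smooth muscle marker was lower at an unadjusted p under 0.05). In cultures measured in bulk, fewer cells of a type and less RNA per cell cannot be told apart, and the part of these marker differences in the results below was not tested.

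The promoter windows of 4 members are shown because these genes were called in a comparison of knockdown with control cells below and their windows differ in composition. Col1a2 was called only against control_ns, with the block, and not against control_st. The windows of Col12a1 and P3h2, the other called members with a large difference, were not used here. Each is 300 bases long, 250 before and 50 after the start of the RefSeq gene in GRCm38.p6, and is written 5′ to 3′ on the gene's own strand. Capitals mark any match on either strand to TATAAA, the letters of the TATA box, to CCAAT, a motif bound by NF-Y, to GGGCGG, the GC box bound by Sp1, or to TGANTCA, the AP-1 site. These letters overlap in no window shown.
Col3a1, chr1:45311288-45311587, plus strand: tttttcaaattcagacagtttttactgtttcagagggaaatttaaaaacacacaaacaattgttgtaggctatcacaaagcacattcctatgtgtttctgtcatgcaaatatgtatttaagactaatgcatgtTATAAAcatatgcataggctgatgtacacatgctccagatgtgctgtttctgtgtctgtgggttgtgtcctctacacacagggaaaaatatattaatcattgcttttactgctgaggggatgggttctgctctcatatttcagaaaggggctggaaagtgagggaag
Col6a3, chr1:90843922-90844221, minus strand: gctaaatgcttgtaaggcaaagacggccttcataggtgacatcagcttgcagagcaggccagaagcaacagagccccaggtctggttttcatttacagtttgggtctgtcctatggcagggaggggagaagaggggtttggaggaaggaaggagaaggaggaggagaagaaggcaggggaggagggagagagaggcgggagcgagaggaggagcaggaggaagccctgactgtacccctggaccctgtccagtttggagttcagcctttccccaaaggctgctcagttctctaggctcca
Col6a1, chr10:76725995-76726294, minus strand: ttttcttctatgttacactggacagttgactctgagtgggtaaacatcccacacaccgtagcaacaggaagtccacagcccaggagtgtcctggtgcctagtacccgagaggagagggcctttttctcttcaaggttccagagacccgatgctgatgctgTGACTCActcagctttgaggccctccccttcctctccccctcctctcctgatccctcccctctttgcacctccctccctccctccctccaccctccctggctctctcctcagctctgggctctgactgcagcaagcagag
Col1a2, chr6:4505368-4505667, plus strand: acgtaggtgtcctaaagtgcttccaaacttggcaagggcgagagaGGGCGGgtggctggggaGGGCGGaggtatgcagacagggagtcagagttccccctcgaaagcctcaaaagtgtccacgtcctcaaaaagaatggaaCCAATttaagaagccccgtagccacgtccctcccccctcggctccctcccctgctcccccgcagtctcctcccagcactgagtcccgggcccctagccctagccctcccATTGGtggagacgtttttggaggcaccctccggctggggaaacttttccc

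RefSeq windows were found for 43 of the 57 members, 47 windows in all. CpG-rich windows, those over 50% GC with observed over expected CpG above 0.6, made up 38.3% of the members' windows and 33.3% of all 32851 windows of the same length. The 5 genes called in BAFkd_st against either control group for which a window was held (Col1a2, Col3a1, Col6a1, Col6a2 and Col6a3) had 0 CpG-rich windows of 6, against 18 of 41 windows of the members not called. Col12a1 and P3h2, which were also called, are in neither count. Of the 5 genes, Col1a2 and Col6a2 were called only against control_ns, a comparison that also differs in TNF-α, and not against control_st. Col3a1 had the lowest GC content of the members' windows, at 37.7%. GGGCGG occurred in 63.8% of the members' windows and 35.7% of all windows, TATAAA in 14.9% and 13.6%, CCAAT in 34.0% and 37.4%, TGANTCA in 2.13% and 7.81%, and the Ebf palindrome in 0% and 0.904%. TATAAA of Col3a1 began 117 bases before the start and the TGANTCA match of Col6a1 90 bases before it. These are descriptions of letters in a window, and no binding was measured.

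**Figure D1:**
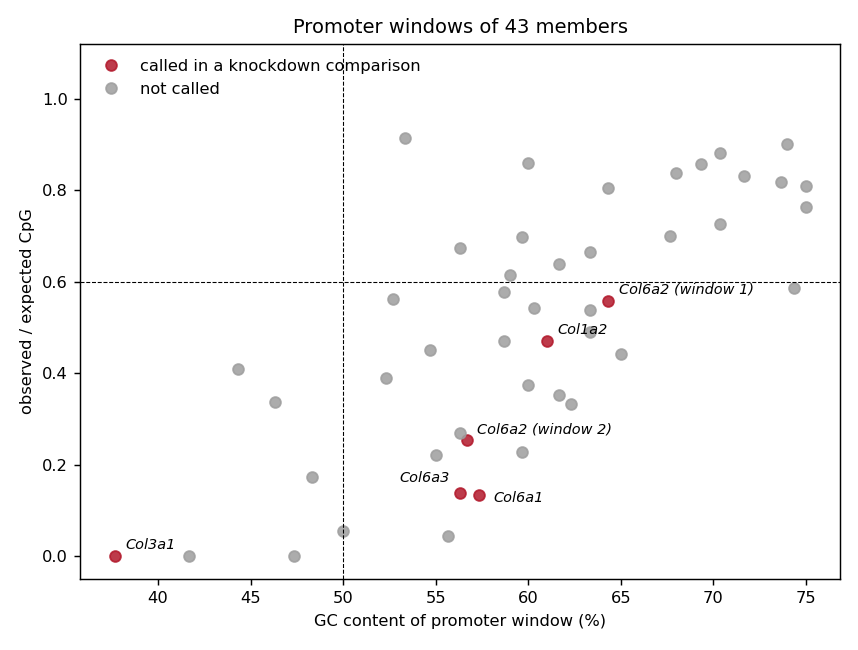
GC content in percent (x axis) against observed over expected CpG (y axis) of the 47 promoter windows of 43 members, with dashed lines at 50% and 0.6. The 6 red windows, of the 5 called genes for which a window was held, all lie outside the upper right field that 18 grey windows occupy, and Col3a1 lies at 37.7% GC. Of these genes, Col1a2 and Col6a2 were called only against control_ns.

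The first comparison asked which collagen genes differed in cells with the hairpin against Brg1 and Brm under the same TNF-α treatment. Col12a1 was lower in BAFkd_st than in control_st in both fits. Col3a1, Col6a3 and Col6a1 were called lower, and the hydroxylase gene P3h2 higher, with the block alone. The members were chosen with earlier results of these data known, so the shares below are descriptions and no test of the set. Without the block 1 member of 57 (1.75%) was called lower, against 0.102% of all genes, and 0 higher, against 0.0355%. At an unadjusted p under 0.05 there were 6 lower, against 4.75% of all genes, and 1 higher, against 3.69%. The methods' t-test gave 3 lower, against 1.46% of all genes, and 1 higher, against 0.741% (0 members after Benjamini-Hochberg adjustment). With the block 4 members (7.02%) were called lower, against 2.33% of all genes, and 1 (1.75%) higher, against 0.98%. The 3 arrays of BAFkd_st lay entirely below those of control_st for 7 members (Col1a2, Col3a1, Col5a1, Col6a3, Col12a1, P3h1 and Plod3), or 12.3%, against 5.47% of all genes, and entirely above for 1, P3h2, against 4.63%. The methods' difference of 0.3 was passed downward by 5 members, or 8.77%, against 3.27% of all genes, and upward by 1, against 1.87%. The median difference over the members was 0.00 (27 below 0 and 30 above), beside 0.01 over all genes. Over all 9 arrays, 43 of the 57 members (75.4%) spanned less than 0.5, beside 81.8% of all genes.

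**Figure D2:**
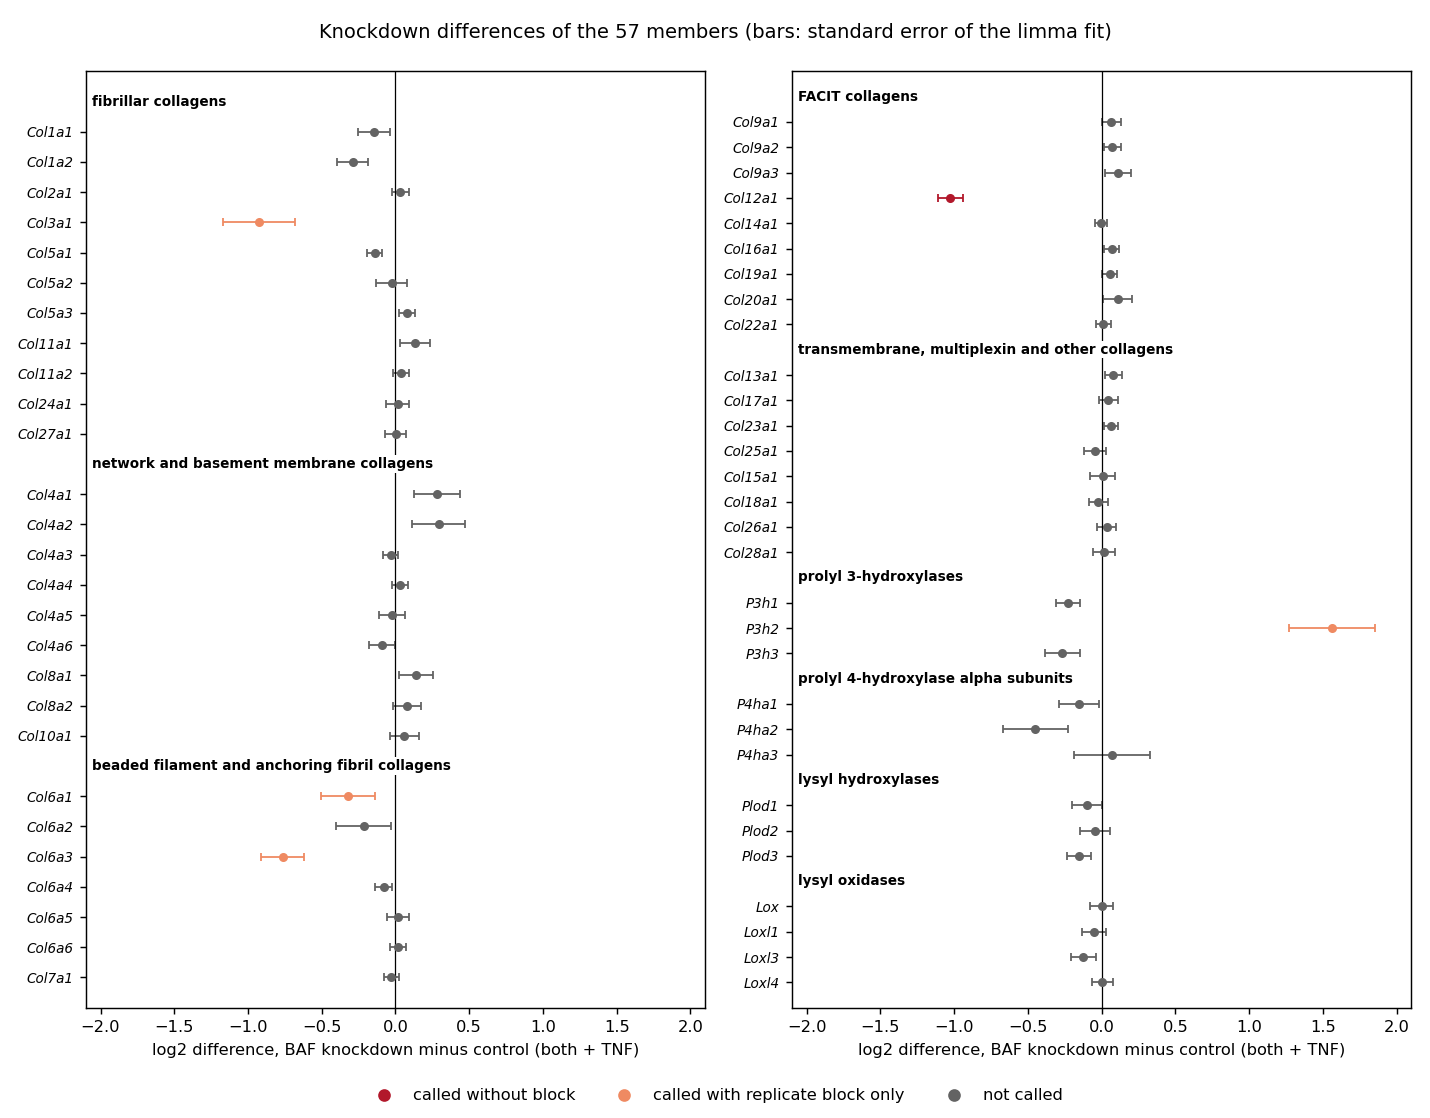
Log2 difference between BAFkd_st and control_st (x axis) of the 57 members, grouped by class (y axis), with bars of 1 standard error of the limma fit on 3 arrays per group. Col12a1 (-1.03), Col3a1 (-0.93) and Col6a3 (-0.76) stand apart to the left and P3h2 (1.56) to the right, while most chains lie near 0.

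Type XII collagen is a fibril-associated (FACIT) collagen, which decorates the surface of collagen fibrils. Its single chain gene, Col12a1, had signals of 10.01, 10.07 and 9.91 in BAFkd_st, 11.07, 11.13 and 10.87 in control_st, and 11.32, 11.21 and 11.09 in control_ns. The knockdown arrays lay below all 6 control arrays, with no overlap. The signal fell 2.04-fold (difference -1.03 ± 0.08, 95% interval -1.22 to -0.84, adjusted p = 0.00362, blocked 0.000241). The call was kept without each of the 9 arrays in turn, at adjusted p between 0.00516 and 0.0359, and in the other limma alternatives it was lost once, when the block was fitted and number 1 left out (0.0732). By the methods' t-test after Benjamini-Hochberg adjustment no member, Col12a1 included, was called. The other 8 FACIT chains, Col9a1 to Col9a3, Col14a1, Col16a1, Col19a1, Col20a1 and Col22a1, differed by between -0.00 and 0.11, and 0 of them were called in either fit. Their group means ran from 7.26 (Col19a1, control_st) to 9.11 (Col9a3, BAFkd_st), beside array medians of 7.77 to 7.83. Whether the chains with low signals were expressed was not tested.

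**Figure D3:**
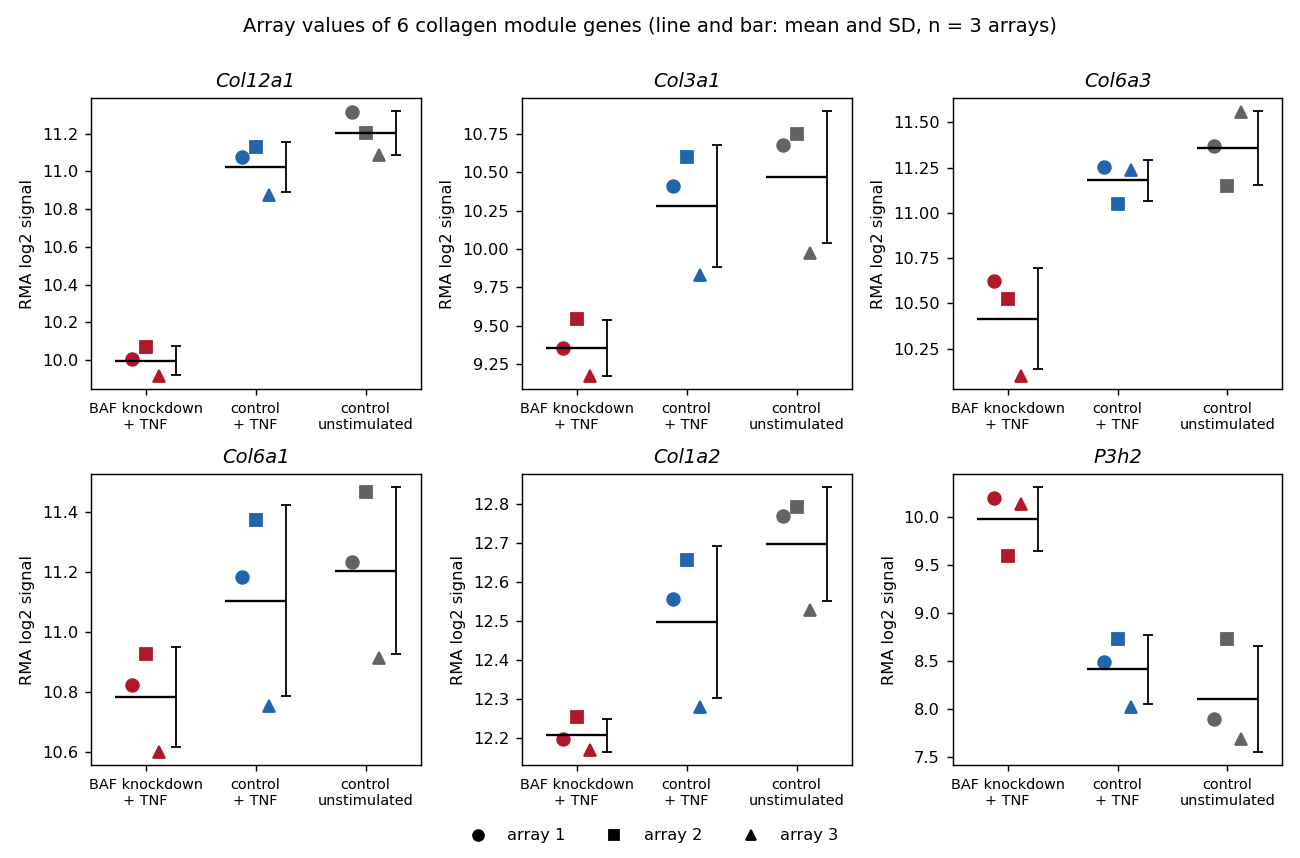
RMA log2 signal (y axis, a range of its own in each panel) of 6 members in each array of BAFkd_st, control_st and control_ns (x axis), with the marker shape giving the array number, lines at group means and bars of 1 SD (n = 3). The knockdown arrays of Col12a1, near 10, lie below all control arrays, and array 3 is the lowest control array for Col3a1, Col6a1 and Col1a2.

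Among the fibrillar collagens, which form the load-bearing fibrils, Col3a1 had the largest difference. It encodes the chain of type III collagen, found with type I in compliant tissues. Its signals were 9.35, 9.54 and 9.17 in BAFkd_st, 10.41, 10.60 and 9.83 in control_st, and 10.68, 10.75 and 9.97 in control_ns. Array 3 was the lowest of each group, yet the groups of the knockdown and its control did not overlap. The difference of -0.93 ± 0.24 (1.90-fold lower) was not called without the block (adjusted p = 0.231) and was called with it (blocked adjusted p = 0.0035). Within numbers 1, 2 and 3 it was -1.06, -1.06 and -0.66. The blocked call was kept without the arrays numbered 2 (0.0307) or 3 (0.0149) and lost without those numbered 1 (0.176).

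Type I collagen, the most abundant collagen of skin and bone, is assembled from Col1a1 and Col1a2. Col1a2 was at 12.20, 12.25 and 12.17 in BAFkd_st, against 12.56, 12.65 and 12.28 in control_st. The arrays did not overlap, but the difference of -0.29 ± 0.10 was not called (adjusted p = 0.447, blocked 0.0602). Col1a1 was at 12.49, 12.42 and 12.50 in BAFkd_st, against 12.68, 12.80 and 12.35 in control_st, with overlap. Its difference was -0.14 ± 0.11 (95% interval -0.39 to 0.10, adjusted p = 0.848). The remaining fibrillar chains lay between -0.14 (Col5a1) and 0.13 (Col11a1), and none was called in either fit. Col3a1 and Col5a2 are neighbours on chromosome 1 in GRCm38.p6 with no protein-coding gene between them. Col5a2, a chain of the type V collagen that regulates fibril diameter, averaged 9.98 ± 0.22 in BAFkd_st and 10.01 ± 0.09 in control_st (SD, n = 3 each). Its difference was -0.03 ± 0.10 (95% interval -0.27 to 0.21), and within numbers 1, 2 and 3 it was -0.08, -0.25 and 0.25.

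The type VI collagens form beaded microfilaments around cells, assembled from the α1, α2 and α3 chains of Col6a1, Col6a2 and Col6a3. Col6a3 was at 10.62, 10.52 and 10.10 in BAFkd_st, 11.25, 11.05 and 11.24 in control_st, and 11.37, 11.15 and 11.55 in control_ns, with the knockdown arrays below all 6 control arrays. Its difference of -0.76 ± 0.15 (1.70-fold lower) had an adjusted p of 0.0956 and was called with the block (0.0320). That blocked call was lost without the arrays numbered 1 (0.394) or 2 (0.0519) and kept at 0.0499 without those numbered 3. Col6a1 was at 10.82, 10.93 and 10.60 in BAFkd_st, against 11.18, 11.38 and 10.75 in control_st. These groups overlapped, since the lowest control array lay below 2 knockdown arrays, while within each number the knockdown array was lower, by -0.36, -0.45 and -0.16. The difference of -0.32 ± 0.18 was called with the block alone (adjusted p = 0.744, blocked 0.0406), and that call was lost without the arrays of any one number (0.480, 0.143 and 0.0948 for numbers 1, 2 and 3). Col6a2, next to Col6a1 on chromosome 10, averaged 10.02 ± 0.17 in BAFkd_st and 10.24 ± 0.27 in control_st (SD, n = 3 each). Its difference of -0.22 ± 0.18 was not called (blocked adjusted p = 0.180), with within-number values of -0.14, -0.34 and -0.16. Col6a4, Col6a5 and Col6a6, which encode alternative chains, and Col7a1, the chain of the anchoring fibrils of skin, differed by between -0.08 and 0.02.

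The network and basement membrane collagens went without a call in either fit. Col4a1 and Col4a2 encode the chains of the ubiquitous type IV collagen, and in GRCm38.p6 run in opposite directions with overlapping 5′ ends, their start sites 21 bases apart. Col4a1 was at 10.01, 9.66 and 10.29 in BAFkd_st, against 9.75, 9.53 and 9.83 in control_st. Col4a2 was at 9.67, 9.19 and 9.85 in BAFkd_st, against 9.35, 9.08 and 9.40 in control_st. Both had positive differences, 0.28 ± 0.16 and 0.29 ± 0.18, with overlapping groups (blocked adjusted p = 0.0899 and 0.0684). Col8a1, a short-chain network collagen, had signals of 11.24, 10.85 and 11.16 in BAFkd_st, against 11.03, 10.94 and 10.87 in control_st, and differed by 0.14 ± 0.11. The other 6 lay between -0.09 and 0.08. The 8 transmembrane, multiplexin and other collagens lay between -0.05 and 0.08, with the largest size that of Col13a1, a transmembrane collagen, at 8.26, 8.10 and 8.08 in BAFkd_st and 8.03, 8.08 and 8.08 in control_st. Col26a1 was at 8.87, 8.81 and 8.69 in BAFkd_st and 8.74, 8.86 and 8.67 in control_st.

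Of the enzymes, P3h2 had the largest difference of any member. It encodes prolyl 3-hydroxylase 2, which hydroxylates prolines in collagen chains and acts mainly on basement membrane collagens. Its signals were 10.19, 9.59 and 10.14 in BAFkd_st, 8.49, 8.73 and 8.02 in control_st, and 7.90, 8.73 and 7.68 in control_ns, so that all knockdown arrays lay above all control arrays. The difference of 1.56 ± 0.29 (2.95-fold, 95% interval 0.90 to 2.22) had an adjusted p of 0.0941 and was called with the block (0.0251). Within numbers 1, 2 and 3 it was 1.70, 0.86 and 2.11. Knockdown array 2, the lowest for P3h2, was also the one with the highest Smarca4 signal (10.64), and the part of that in the result was not tested. The blocked call was lost without the arrays numbered 1 (0.423) or 3 (0.227) and kept without those numbered 2 (0.00232). The other prolyl 3-hydroxylases had negative differences. P3h1, part of the complex that modifies fibrillar collagens, was at 9.41, 9.28 and 9.42 in BAFkd_st, against 9.60, 9.67 and 9.51 in control_st (-0.23 ± 0.08, blocked adjusted p = 0.234), and P3h3 was at 10.22, 10.50 and 10.43, against 10.66, 10.80 and 10.49 in control_st (-0.27 ± 0.12, blocked adjusted p = 0.181).

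The remaining 10 enzymes were not called in either fit. The prolyl 4-hydroxylases make the 4-hydroxyproline that keeps the triple helix stable at body temperature. P4ha2, one of their catalytic subunits, was at 9.89, 10.08 and 9.38 in BAFkd_st, against 10.52, 10.19 and 9.99 in control_st (-0.45 ± 0.22, adjusted p = 0.659, blocked 0.0681), with overlap. P4ha3 was at 11.55, 11.51 and 11.55 in BAFkd_st and 11.53, 11.72 and 11.14 in control_st, and P4ha1 differed by -0.16 ± 0.14. The lysyl hydroxylase Plod3 was at 11.30, 11.26 and 11.13 in BAFkd_st and 11.48, 11.36 and 11.31 in control_st, without overlap (-0.16 ± 0.08, blocked adjusted p = 0.175), beside Plod1 at -0.10 and Plod2 at -0.04. Lox, which oxidises lysines to start cross-linking, was at 13.42, 13.51 and 13.46 in BAFkd_st and 13.46, 13.58 and 13.35 in control_st, a difference of -0.00 ± 0.08 (95% interval -0.18 to 0.18). Its paralogue Loxl3 was at 9.58, 9.40 and 9.70 in BAFkd_st and 9.65, 9.67 and 9.74 in control_st, and Loxl1 and Loxl4 differed by -0.05 and 0.00. A second Loxl4 row, not tested on its own, differed by 0.11. After TNF-α in control cells that row differed by 0.22, and in BAFkd_st against control_ns by 0.33, beside 0.03 in each for the row used.

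Chains that assemble together or lie side by side, and the enzymes P3h2 and P3h1, were then compared within the same arrays, in 6 pairs picked after their values were seen. The smallest p that an exact permutation test of 3 against 3 arrays allows is 0.1 (two-sided), so none could pass the threshold. The log2 ratio of Col3a1 to its neighbour Col5a2 was lower in BAFkd_st by -0.90 (exact p = 0.1, 0.2 adjusted over the 6 pairs), that of Col1a2 to Col1a1 by -0.15 (exact p = 0.1, 0.2 adjusted) and that of P3h2 to P3h1 higher by 1.79 (exact p = 0.1, 0.2 adjusted). The ratio of Col6a3 to Col6a1 differed by -0.44 (exact p = 0.2, 0.3 adjusted), with within-number values of -0.27, -0.08 and -0.98. The ratios of Col6a2 to Col6a1 and Col4a2 to Col4a1 differed by 0.11 (exact p = 0.3) and 0.01 (exact p = 0.9).

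**Figure D4:**
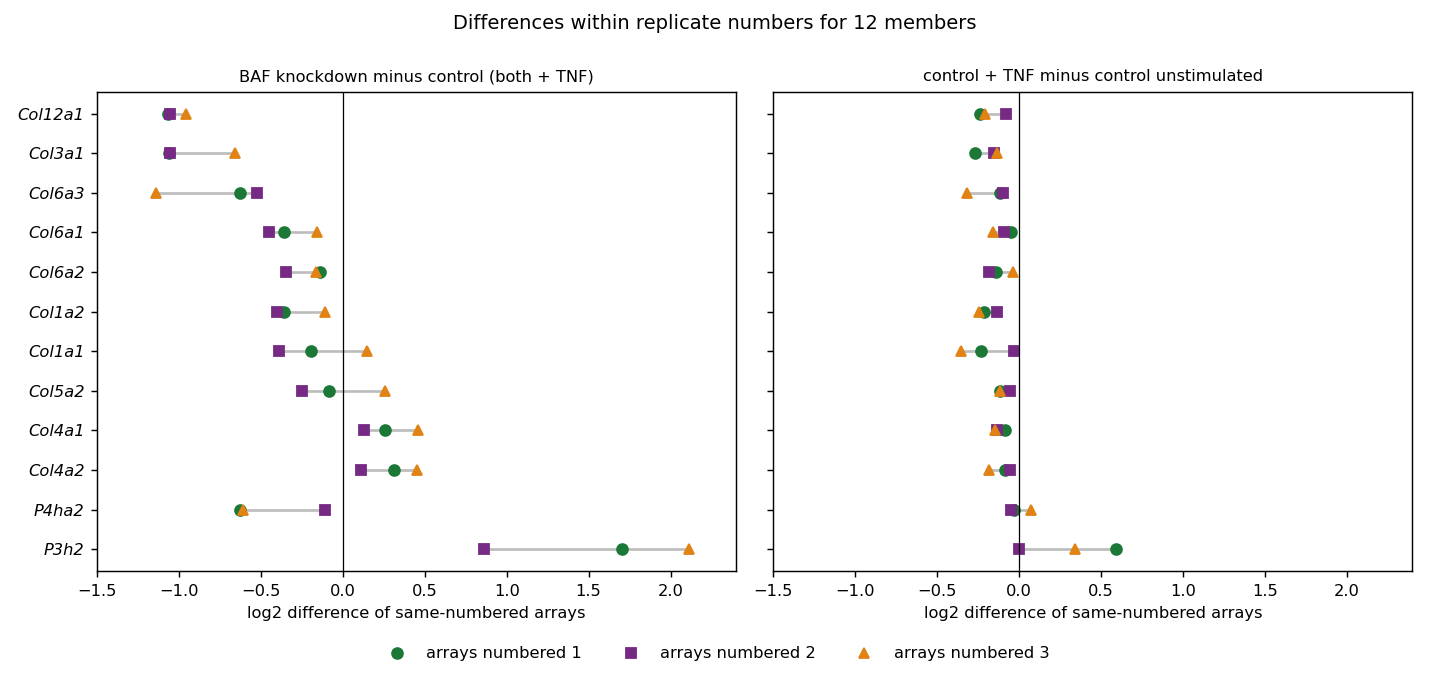
Log2 differences between same-numbered arrays (x axis) for 12 members (y axis), for BAFkd_st minus control_st on the left and control_st minus control_ns on the right, with the marker giving the number and the grey line the range. For Col12a1, Col3a1, Col6a3 and Col6a1 all 3 knockdown differences lie below 0, and those of P3h2 lie between 0.86 and 2.11.

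The second comparison asked which of these genes differed after 1 h of TNF-α in control cells. No member was called by limma in either fit. The counts were 0 lower and 0 higher, against 0% and 0.137% of all genes without the block, and 0.0305% and 0.366% with it. At an unadjusted p under 0.05 there were 0 members without the block, against 1.22% of all genes lower and 1.85% higher. With the block there were 2, both lower (Col1a2, -0.20 ± 0.10, and Col12a1, -0.18 ± 0.08), against 2.24% of all genes lower and 3.02% higher. The methods' t-test for inducible genes, with a difference past 0.35, gave 0 members, against 0.0406% of all genes lower and 0.543% higher. The control_st arrays lay entirely below control_ns for 0 members, against 2.78% of all genes, and entirely above for 0, against 3.19%. Differences ran from -0.21 ± 0.11 for Col1a1 to 0.31 ± 0.29 for P3h2. The median was 0.00, beside -0.00 over all genes. By its 95% interval without the block, Lox stayed within 0.19 of no difference (-0.19 to 0.17). Col1a1 stayed within 0.46 (-0.46 to 0.04) and Col3a1 within 0.74 (-0.74 to 0.37). A modest difference in Col3a1 could not be detected with these arrays in that fit. With the block Col3a1 differed by -0.19 ± 0.10 (limma unadjusted p = 0.0962) and was not called. Within numbers 1, 2 and 3 it differed by -0.27, -0.15 and -0.14.

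The third comparison, of TNF-treated knockdown cells with unstimulated control cells, holds both differences together. It shares arrays with each of the others and is no separate support for them. Without the block Col12a1 (-1.21 ± 0.08, adjusted p = 0.000509) and Col6a3 (-0.94 ± 0.15, 0.0250) were called lower, 2 members against 0.599% of all genes, and P3h2 (1.87 ± 0.29, 0.0250) was called higher, 1 against 0.518%. With the block 6 members were called lower, against 3.36% of all genes, and 1 higher, again P3h2 (blocked adjusted p = 0.0079), against 1.98%. The 6 were Col12a1, Col3a1 (-1.11, blocked adjusted p = 0.00111), Col6a3 (0.00949), Col1a2 (-0.49, 0.00544), Col6a1 (-0.42, 0.00963) and Col6a2 (-0.34, 0.0296). Col1a1 differed by -0.35 and was not called (blocked adjusted p = 0.0763). Without the arrays numbered 1 every one of these blocked calls but that of Col12a1 (0.0392) was lost, at blocked adjusted p between 0.109 for Col3a1 and 0.316 for Col6a2. The knockdown target Smarca4 lost its blocked call in that fit as well (0.0956). The call of Col6a2 was also lost without those numbered 2 (0.0936) or 3 (0.0944), and that of P3h2 without those numbered 3 (0.0998). Col12a1 remained called without each of the 9 arrays. Col6a3 was called only without control_ns array 2 (0.0429), control_st array 2 (0.0425) or BAFkd_st array 2 (0.0286), and its adjusted p reached 0.116 without control_ns array 1. P3h2 was not called without control_ns arrays 1 (0.121) or 3 (0.0744), control_st array 1 (0.0590) or BAFkd_st arrays 1 (0.124) or 3 (0.112). Without control_st array 3, Col1a2 was called (0.0473) and Col6a3 was not (0.0552).

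The genes that fold, export and process collagen were described next, from a list of 25 of which 23 were measured. That list too was chosen with earlier results of these data known and was not tested as a set. Without the block 0 were called in the knockdown (6 lower and 0 higher at an unadjusted p under 0.05, where 4.75% of all genes were lower and 3.69% higher), and the median difference was -0.10, beside 0.01 over all genes. With the block 3 were called lower and 0 higher, where 2.33% of all genes were called lower and 0.98% higher. Bmp1, the proteinase that removes the C-terminal propeptide of fibrillar procollagens, was at 11.16, 11.22 and 11.05 in BAFkd_st, against 11.68, 11.86 and 11.51 in control_st (-0.54 ± 0.12, adjusted p = 0.135, blocked 0.00337). P3h4, a relative of the prolyl 3-hydroxylases that works with lysyl hydroxylase, was at 10.81, 10.96 and 10.50 in BAFkd_st, against 11.23, 11.27 and 11.12 in control_st (-0.45 ± 0.12, blocked adjusted p = 0.0105). Mia3, which helps load collagen into export vesicles, differed by -0.24 ± 0.09 (blocked adjusted p = 0.0345). None of the 3 overlapped between the groups. The blocked call of Bmp1 was lost without the arrays numbered 1 (0.178) or 3 (0.0502), that of P3h4 likewise (0.275 and 0.104), and that of Mia3 without those of any one number (0.412, 0.0767 and 0.261). Against control_ns the same 3 genes were called lower with the block (0.00153, 0.00647 and 0.0154), and P4hb, the shared β subunit of prolyl 4-hydroxylase (-0.26, blocked adjusted p = 0.0170), and Pcolce, an enhancer of Bmp1 (-0.25, 0.0401), were called lower as well, 5 in all, where 3.36% of all genes were called lower. Without the arrays numbered 1 all 5 of these calls were lost (0.123 to 0.436), without those numbered 2 Mia3, P4hb and Pcolce were lost (0.0575, 0.0804 and 0.0556), and without those numbered 3 only Bmp1 was kept (0.0239). Serpinh1, the collagen chaperone, and Sparc, a collagen-binding matricellular protein, differed in the knockdown by -0.13 and -0.00. After TNF-α 0 of the 23 were called in either fit (1 lower at an unadjusted p under 0.05).

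Regulators of collagen transcription were taken from a list of 24 symbols, of which 22 were measured (Mkl1 and Mrtfa name the same gene, measured as Mrtfa). The list was chosen with earlier results of these data known, so its counts beside all genes are descriptions, and the list itself was not tested. In the knockdown 2 were called lower and 0 higher without the block, where 0.102% of all genes were called lower, and the median was -0.05. Creb3l1, a membrane-bound transcription factor that drives type I collagen synthesis in osteoblasts, was at 9.17, 9.40 and 9.14 in BAFkd_st, against 10.06, 9.91 and 9.96 in control_st, and fell 1.67-fold (-0.74 ± 0.08, adjusted p = 0.0209). Ebf1, a transcription factor of mesenchymal and B-lineage cells, was at 7.95, 8.23 and 7.87 in BAFkd_st, against 9.13, 8.82 and 9.37 in control_st, and fell 2.13-fold (-1.09 ± 0.15, 0.0392). For both genes the groups did not overlap. The call of Creb3l1 was kept only without control_ns arrays 2 (0.0286) or 3 (0.0427) or BAFkd_st array 2 (0.00455), and its adjusted p reached 0.146 without control_st array 1. That of Ebf1 was kept only without array 2 of control_st (0.0402) or of BAFkd_st (0.0191), and reached 0.216 without control_st array 1. With the block Tgfbr1, a receptor for TGF-β, was called lower as well (-0.46 ± 0.10, blocked adjusted p = 0.00521), a call lost without the arrays numbered 1 (0.183) or 3 (0.0806). The blocked calls of Creb3l1 and Ebf1 (0.00591 and 0.00874) were lost without the same numbers (0.236 and 0.0951 for Creb3l1, 0.311 and 0.0980 for Ebf1). Together 3 of the 22 were called lower in the knockdown with the block, where 2.33% of all genes were. Against control_ns, Creb3l1 (-0.88, adjusted p = 0.00335), Ebf1 (1.99-fold, 0.0204) and Tgfbr1 (-0.54, 0.0477) were called lower without the block. These were 3 of 22, where 0.599% of all genes were called lower. The Tgfbr1 call was lost without each of the 9 arrays in turn (0.0691 to 0.187), and that of Ebf1 without control_ns arrays 1 (0.0968) or 3 (0.0707), control_st array 1 (0.0510) or BAFkd_st arrays 1 (0.105) or 3 (0.0839). Against control_ns with the block, Snai1 was also lower (-0.55, blocked adjusted p = 0.00195) and Srf, the serum response factor, higher (0.44, 0.0453). That made 4 lower and 1 higher, where 3.36% and 1.98% of all genes were called. The Snai1 call was lost without the arrays numbered 1 (0.131), and that of Srf without those numbered 1 (0.308) or 3 (0.248). In the knockdown comparison Snai1 differed by -0.11 and Srf by -0.03, and neither was called. After TNF-α in control cells Srf differed by 0.46 and was not called (blocked adjusted p = 0.197). Ccn2 had the largest difference of the list there, 0.73 ± 0.38, and was not called either (blocked adjusted p = 0.198). In the knockdown Ccn2 differed by -0.69 ± 0.38 with overlapping groups and was not called (blocked adjusted p = 0.0626). Snai1, a repressor of epithelial genes, was the only one of these regulators called after TNF-α in control cells, lower with the block (-0.45 ± 0.12, adjusted p = 0.795, blocked 0.0194), and that call was lost without the arrays of any one number (0.810, 0.0930 and 0.241). Of all genes, 0.0305% were called lower there with the block.

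**Figure D5:**
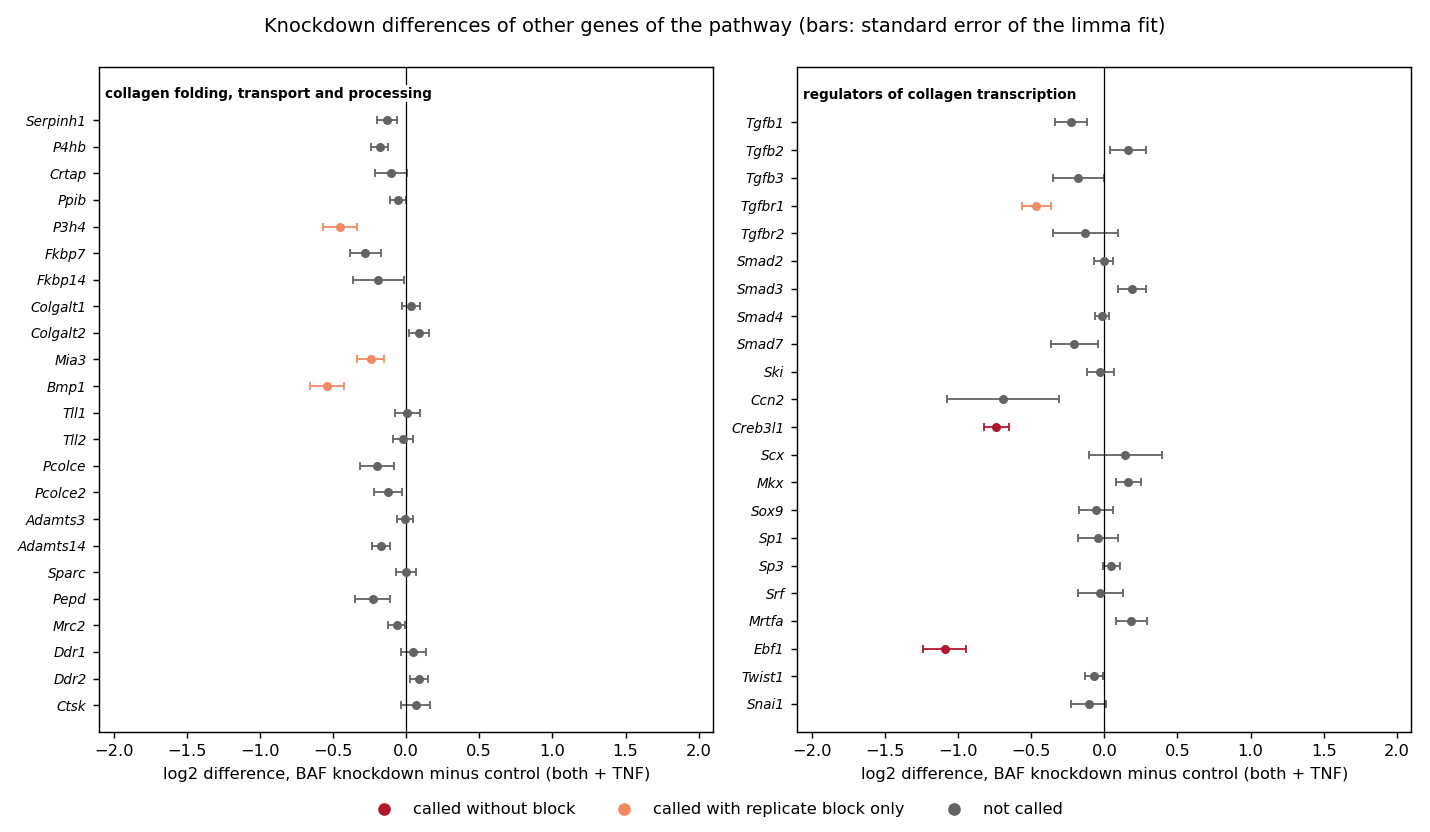
Log2 difference between BAFkd_st and control_st (x axis) of 23 folding, transport and processing genes (left) and 22 transcriptional regulators (right), with bars of 1 standard error of the limma fit on 3 arrays per group. Ebf1 (-1.09) and Creb3l1 (-0.74) were called without the block, and Bmp1, P3h4, Mia3 and Tgfbr1 with it alone.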

How the data were processed

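RNA of 9 cultures of 3T3 fibroblasts was measured on Affymetrix Mouse Gene 1.0 ST arrays. The authors processed the arrays by RMA (background correction, quantile normalization and probe summary), and the deposited values are log2 signals for 27024 rows. The version of that step and the genome build of the annotation are not given in the sources used here. Rows with 1 annotated symbol were kept, the highest-mean row per gene, which left 19698 genes. Groups were compared by linear models in limma 3.58.1 under R 4.3.3 (two-sided moderated tests, 1 mean per group over 9 arrays, 6 residual degrees of freedom, 4 with the block), adjusted by Benjamini-Hochberg, and the script was tested on simulated data. Deviations from group means correlated at 0.210 to 0.724 between arrays of one number and at -0.566 to 0.0111 between arrays of different numbers. All of the first exceeded 0.1, the minimum for taking the numbers as pairs, and a second fit therefore had the number as a block. Values by array are given for members called in any comparison and, per class, the member with the highest mean and that with the largest knockdown difference. A few partners and neighbours of these were added after their values were seen. Members, lists and tests were chosen with earlier results of these data known. Arrays give no read depth, so their number limits the precision. The list genes Fkbp10, Adamts2, Runx2, Bglap and Cfd were not analysed here. The listed symbol Mkl1 is an earlier name of Mrtfa, under which that gene was analysed.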

Additional observations from a re-analysis of the deposited data

How the results depend on the processing

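No called difference changed sign under any alternative run. In the knockdown comparison the count of members called lower, 1 without a block, was 4 with the replicate block, which pairs arrays by number, 0, 3 and 3 with the replicate block and no arrays numbered 1, 2 or 3, 3 against all 6 control arrays, and 3 by the t-test (0 after adjustment), and it was 1 without each single array. The count called higher, 0, was 1 with the block, 2 with the block and no arrays numbered 2, 1 against all 6 control arrays and 1 by the t-test. Against control_ns the count called lower, 2, was 6 with the block, 1, 6 and 6 with the block and no arrays numbered 1, 2 or 3, 1 with only the compared groups, 4 with array weights, 5 by the t-test (0 after adjustment), and 1 to 2 without single arrays. The count called higher there, 1, was 0, 2 and 0 in the blocked fits without numbers 1, 2 or 3, 0 with only the compared groups, 0 by the adjusted t-test, and 0 to 1 without single arrays. After TNF-α the median difference of the members, 0.00, lay between -0.033 and 0.030 without single arrays, lowest without control_st array 2, and 0 members were called under any alternative. The calls of named genes that the block changed are given beside each gene. Apart from the constructions with fewer arrays, the causes were not tested. The number of arrays limits the precision: the 95% interval of the P3h2 difference after TNF-α, the widest among the members, ran from -0.35 to 0.97.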
